A study of Rattus norvegicus with 8 samples.

Results

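The endocannabinoid receptors and enzymes measured here are the 8 genes Cnr1, Cnr2, Dagla, Daglb, Napepld, Mgll, Abhd6 and Faah, chosen by name from the 26514 gene names and identifiers carried by the non-control probes of the rat mRNA arrays. They were represented by 11 of the 30367 probes, and all 11 were well above background on all 8 arrays, so that no member was lost to the filter on dim probes. The arrays compared 4 male Wistar rats after chronic stress, given as water avoidance (WA), with 4 male control rats, all 12 weeks old. The stressed rats spent sessions of 1 h on a platform surrounded by water on 10 days, and their lumbar L6S1 spinal cord was taken on day 11. The labels say of the other group only that it is the control, and the study describes those rats as handled. The meninges were removed at dissection, and each array carried the RNA of 1 rat. The question was whether repeated psychological stress changed the transcripts that make, sense and remove endocannabinoids in the segments that receive pain signals from the colon.

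Endocannabinoids are lipid messengers that are made on demand in the membrane of the receiving neuron and act backwards on the sending terminal, where the CB1 receptor (Cnr1) lowers transmitter release. In the dorsal horn this brake acts on pain transmission, while the CB2 receptor (Cnr2) is best known from immune cells, including microglia. The diacylglycerol lipases (Dagla and Daglb) make 2-arachidonoylglycerol, and monoacylglycerol lipase (Mgll) and Abhd6 break it down. Napepld makes anandamide and related N-acylethanolamines, and fatty acid amide hydrolase (Faah) breaks them down.

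The results turn on how single probes behaved, so the probes of the enzymes with the widest spread between rats, and the pair of Napepld probes that act as a technical repeat of each other, are shown as the array carries them, 5′ to 3′. Positions were taken from the files, which use the rn4 assembly and list these probes in ascending order, read here as the plus strand. The Mgll probe lies at chr4:122904962-122905021 and starts at base 529 of its transcript. The Faah probe shown starts at base 1347, and its listed position, chr5:136325787-136326538, covers 752 bases although the probe has 60. The Napepld probes lie at chr4:8845640-8845699 and chr4:8845650-8845709 and start at bases 1121 and 1131. They share 50 positions and differ in 1 of them, written C49T with positions counted from the 5′ end of the probe at 1121, and capitals mark that base in each.
Mgll, probe at 529: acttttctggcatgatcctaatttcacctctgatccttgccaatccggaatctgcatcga
Faah, probe at 1347: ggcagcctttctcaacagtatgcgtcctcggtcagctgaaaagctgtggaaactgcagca
Napepld, probe at 1121: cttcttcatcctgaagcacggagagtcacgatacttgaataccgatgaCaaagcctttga
Napepld, probe at 1131: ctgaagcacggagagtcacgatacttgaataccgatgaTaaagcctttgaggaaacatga

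Levels are given as the log2 signal of a probe minus that of its array's 75th percentile, so that 0 is the signal of that percentile. Changes are log2 differences of stressed minus control rats from limma, with a two-sided p adjusted over all 23677 tested probes by the Benjamini-Hochberg method, and a probe was called at an adjusted p below 0.1. Exact permutation tests over the 70 ways of choosing 4 of the 8 rats were two-sided and allow no p below 0.0286. The median change of all tested probes was 0.06, and it became -0.05 with scaling to the median of each array and -0.14 with no scaling, so small changes of a member are read against that shift. All arrays lay on 1 slide, with each group in a row of its own, so that row and stress cannot be told apart. Control replicate 2 stood apart from the other control rats: the median 5′ minus 3′ difference of its array, taken over 1885 transcripts whose probes lay 300 bases or more apart and centred over the arrays, was 0.22, against -0.30 to -0.18 in control replicates 1, 3 and 4 and 0.09 to 0.17 in the stressed rats. On the first principal component of all tested probes, which held 54.1% of the variance, it lay at -46.1, on the side of the stressed rats (-34.5 to -8.23) and away from the other control rats (39.4 to 56.3). The labels place this rat with the controls and it was kept there, but nothing measured here checks that label, and comparisons with and without it are to be read with that limit. The values of the endocannabinoid genes are therefore also given without this rat where their call or size moved. Fewer cells of a type and less RNA per cell cannot be told apart in this tissue.

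No endocannabinoid receptor or enzyme was called between stressed and control rats. Of the 11 probes, limma called 0, where 3.74% of all tested probes were called, and 2 had an unadjusted p below 0.05, where 20.3% of all tested probes did. The stressed and control rats overlapped at all 11 probes, while they did not overlap at 12.1% of all tested probes. The estimates were positive at 8 probes and negative at 3, with a median of 0.10 beside 0.06 for all tested probes. Relative to the median of all probes they ran from -0.20 for Daglb to 0.46 for Mgll. The widest 95% interval, that of Mgll, reached 1.29, and none went below -0.40.

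**Figure D1:**
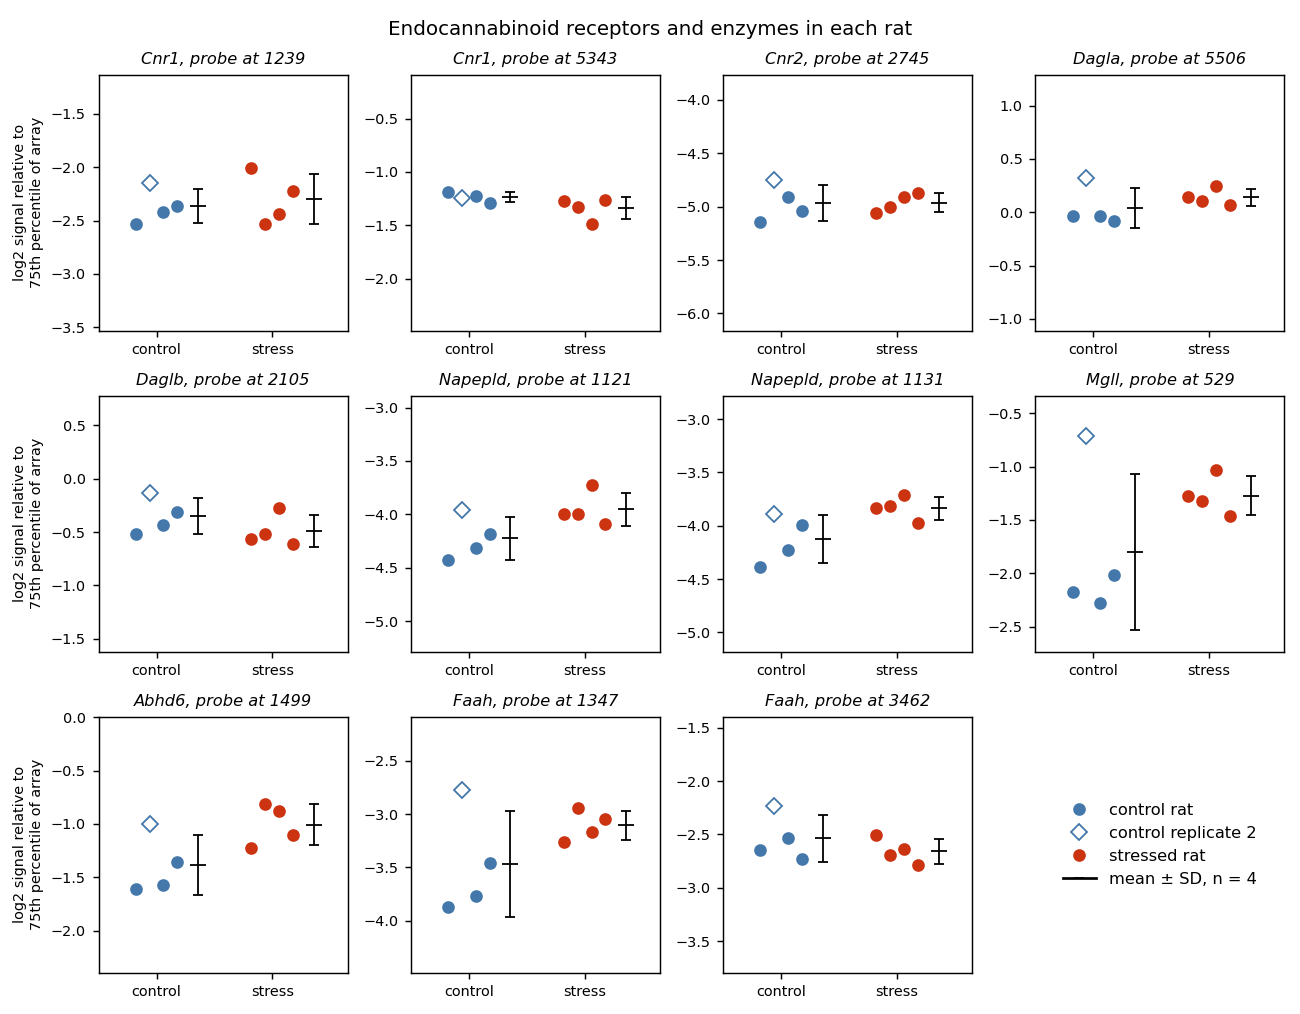
Log2 signal scaled to the 75th percentile of the array (vertical axes, all 2.4 log2 units high) for the 11 probes in each control (blue) and stressed (red) rat, with bars for the mean ± SD of 4 rats. Control replicate 2 (open diamond) is the highest control at every probe but the Cnr1 probe at 5343, and at Mgll it lies at -0.71 while the other control rats lie at or below -2.02.

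Of the 3 receptor probes, those of Cnr1 had the narrowest and the widest range over the rats, with that of Cnr2 between them. The probe that stands for the gene starts at base 5343 of the transcript (chr5:50449223-50449282) and was printed in 10 spots. It read -1.19, -1.24, -1.23 and -1.29 in control replicates 1 to 4 and -1.27, -1.32, -1.49 and -1.26 in stressed replicates 1 to 4. The 8 rats spanned only 0.30 log2 units, with control replicate 2 in the middle of the control rats. The change was -0.10 (standard error 0.08, 95% interval -0.27 to 0.07, adjusted p = 0.468 from limma). The other Cnr1 probe, at base 1239 (chr5:50445119-50445178), spanned 0.52 log2 units. It averaged -2.37 ± 0.16 (SD, n = 4) in control and -2.30 ± 0.23 (SD, n = 4) in stressed rats, and its change of 0.07 (standard error 0.14, 95% interval -0.25 to 0.38, adjusted p = 0.793 from limma) turned sign under other scalings.

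Cnr2 was measured by 1 probe at base 2745 (chr5:154701998-154702057). Its signal before scaling was between 52.5 and 76.8 on the 8 arrays, and well above background on each. It read -5.14, -4.75, -4.91 and -5.04 in control rats and -5.06, -5.00, -4.91 and -4.87 in stressed rats. Every stressed rat lay inside the range of the control rats. The difference was 0.00 (standard error 0.10, 95% interval -0.23 to 0.23, adjusted p = 0.997 from limma), and it was -0.20 after quantile normalization. The single spots of this probe differed within an array by a median SD of 0.29. The SD between rats was 0.17 in the control and 0.09 in the stressed group, but it is that of the mean of 2 spots.

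The lipases that make 2-arachidonoylglycerol showed small estimates of opposite sign. Dagla, the lipase of the postsynaptic neuron, was measured at base 5506 (chr1:212733661-212733720). It read -0.04, 0.32, -0.03 and -0.08 in control rats and 0.15, 0.10, 0.24 and 0.07 in stressed rats. Control replicate 2 was above every other rat, and control replicates 1, 3 and 4 were below all stressed rats. The change was 0.10 (standard error 0.10, 95% interval -0.14 to 0.34, adjusted p = 0.606 from limma). Without control replicate 2 it was 0.19 (adjusted p = 0.0545), and with scaling to the array median it was -0.02.

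Daglb, the related lipase that is prominent in microglia and macrophages, was measured at base 2105 (chr12:11403866-11403925). It read -0.52, -0.14, -0.43 and -0.32 in control rats and -0.56, -0.51, -0.28 and -0.61 in stressed rats. Again control replicate 2 was the highest rat, but here the other control rats lay among the stressed rats. The change was -0.14 (standard error 0.11, 95% interval -0.40 to 0.12, adjusted p = 0.485 from limma) and stayed negative under all 19 alternatives, between -0.34 and -0.07, with no call.

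Napepld, the phospholipase D of anandamide synthesis, had higher estimates in stressed rats at both of its overlapping probes. The probe at 1131 read -4.39, -3.89, -4.23 and -3.99 in control rats and -3.84, -3.82, -3.72 and -3.97 in stressed rats. Control replicates 1, 3 and 4 lay below all stressed rats, control replicate 4 by 0.02, and control replicate 2 lay among them. The change was 0.29 (standard error 0.12, 95% interval 0.00 to 0.57, adjusted p = 0.242 from limma), a ratio of 1.22. The probe at 1121 gave 0.27 (standard error 0.12, adjusted p = 0.265). Without control replicate 2 the changes were 0.37 (adjusted p = 0.0409) and 0.36 (adjusted p = 0.0393), and with quantile normalization 0.11 and 0.09.

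Mgll, the main hydrolase of 2-arachidonoylglycerol, had the largest estimate and by far the widest spread. It read -2.18, -0.71, -2.28 and -2.02 in control rats and -1.27, -1.32, -1.03 and -1.46 in stressed rats. The rats fell in 3 levels, with control replicates 1, 3 and 4 lowest, the stressed rats between and control replicate 2 highest. The control mean was -1.80 ± 0.73 (SD, n = 4) and the stressed mean -1.27 ± 0.18 (SD, n = 4). The change of 0.52 (standard error 0.33, 95% interval -0.24 to 1.29) was within the spread between rats (adjusted p = 0.392 from limma, exact permutation p = 0.2). Without control replicate 2 the change was 0.89 (standard error 0.12, adjusted p = 0.00227), so a single control rat decided whether Mgll was called. The paired Mgll spots had a median SD of 0.04 within an array.

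Abhd6, a membrane hydrolase of 2-arachidonoylglycerol, was measured at base 1499 (chr15:18847155-18847214). It read -1.61, -1.0, -1.57 and -1.36 in control rats and -1.23, -0.81, -0.88 and -1.11 in stressed rats. Control replicates 1, 3 and 4 were below all other rats, and control replicate 2 lay among the stressed rats without exceeding them. The change was 0.38 (standard error 0.16, 95% interval 0.01 to 0.75, adjusted p = 0.238 from limma, exact permutation p = 0.0857), a ratio of 1.30. It was positive under all 19 alternatives, between 0.06 and 0.53, and without control replicate 2 it was 0.51 (adjusted p = 0.02).

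Faah, the hydrolase of anandamide, gave estimates of opposite sign at its probes. The probe that stands for the gene, at base 3462 (chr5:136329754-136329813), read -2.65, -2.23, -2.53 and -2.73 in control rats and -2.51, -2.70, -2.64 and -2.79 in stressed rats. Apart from control replicate 2, which was highest, the groups intermingled, and the change was -0.12 (standard error 0.12, 95% interval -0.40 to 0.16, adjusted p = 0.577 from limma). The probe at base 1347 read -3.87, -2.77, -3.77 and -3.46 in control rats and -3.26, -2.94, -3.17 and -3.05 in stressed rats. These values repeated the 3 levels seen at Mgll, and the change was 0.36 (standard error 0.23, 95% interval -0.17 to 0.90, adjusted p = 0.395 from limma). Without control replicate 2 the probe at 1347 was called (0.59, adjusted p = 0.0114), while the probe at 3462 was not (-0.02, adjusted p = 0.866).

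At 6 of the 11 probes, those of Dagla, Mgll, Abhd6, both of Napepld and the Faah probe at 1347, control replicates 1, 3 and 4 were all below the other 5 rats, an order found at 27% of all tested probes. This order was that of the scaled signal. The 75th percentile used for scaling was itself higher in control replicates 1, 3 and 4 (2139 to 2335) than in control replicate 2 (1841) and the stressed rats (1751 to 1945). Before scaling, Mgll kept the order, with signals of 473 to 577 against 705 to 1120. At Dagla, Abhd6, both Napepld probes and the Faah probe at 1347 the unscaled signals did not keep it. Control replicate 2 was the highest of all rats at 6 of the 11 probes (54.5%), beside 32.2% of all tested probes. These were the probes of Cnr2, Dagla, Daglb and Mgll and both of Faah. Without this rat 6 probes were called (54.5%), and so were 42.4% of all tested probes. The 6 called were those where control replicates 1, 3 and 4 lay below the other rats. At these probes leaving out control replicate 2 ends the overlap of the groups, so the calls are no separate evidence. When limma weighted the arrays, control replicate 2 had a weight of 0.107, against 0.784 to 2.71 for the others. The number of probes called was then again 6, and 50.6% of all tested probes were called. With any other rat left out, 0 of the 11 were called, where only 0 to 72 of all 23677 tested probes were.

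The same 3 levels appeared in the 5′ minus 3′ difference of the arrays. It measures how the signal of the probe nearer the start of a transcript compared with that of the probe nearer its end. With this difference as a covariate, 0 of the 11 probes were called, where 10.1% of all tested probes were. The estimate for Mgll then changed from 0.52 to -0.32 (standard error 0.11, adjusted p = 0.14 from limma) and that of the Faah probe at 1347 from 0.36 to -0.18 (standard error 0.14, adjusted p = 0.479). Those of Napepld and Abhd6 fell to between 0.04 and 0.06. Dagla turned to -0.11 (adjusted p = 0.459), Daglb and the Faah probe at 3462 became more negative (-0.33 and -0.34, adjusted p = 0.131 and 0.134), and the Cnr1 probe at 5343 hardly moved (-0.08). Since the difference separates the stressed rats from control replicates 1, 3 and 4 as completely as the group label does, this covariate and stress are told apart mainly by control replicate 2.

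**Figure D2:**
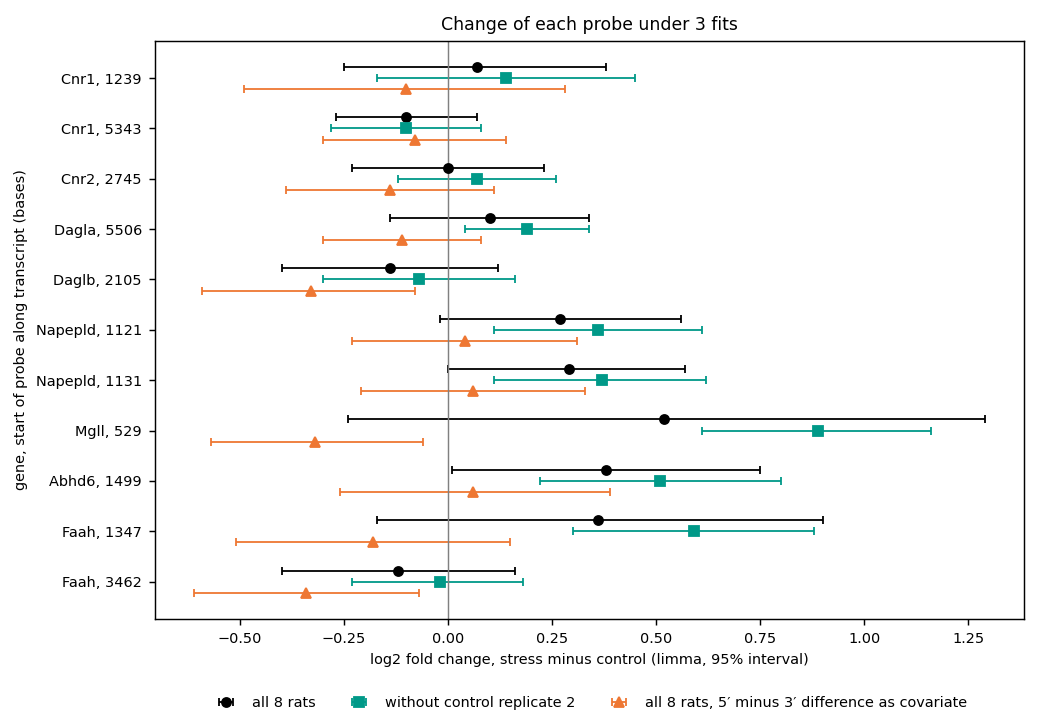
Log2 fold change of stressed minus control rats (horizontal axis) with its 95% interval for each of the 11 probes (vertical axis, named by gene and by where the probe starts along the transcript), fitted with all 8 rats (black circles), without control replicate 2 (green squares) and after adding the array's 5′ minus 3′ difference to the fit (orange triangles). The Mgll estimate runs from -0.32 to 0.89 over these fits, whereas the Cnr1 probe at 5343 stays between -0.10 and -0.08.

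**Figure D3:**
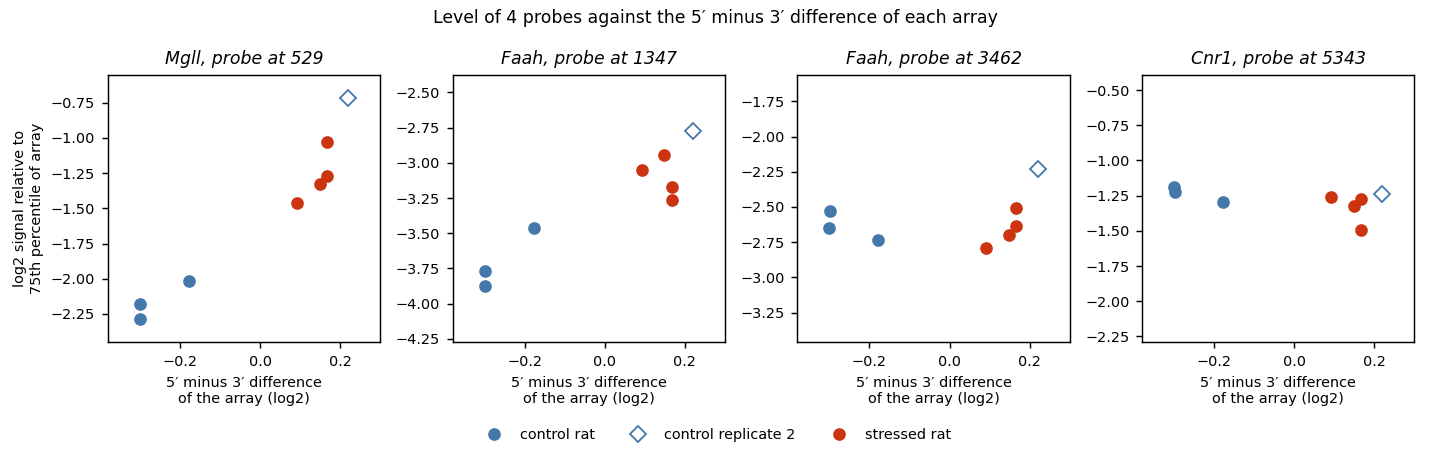
Log2 signal of 4 probes, scaled to the 75th percentile of the array (vertical axes, all 1.9 log2 units high) against the median 5′ minus 3′ difference of the same array (horizontal axes, log2), with 1 point for each rat. At Mgll and at the Faah probe at 1347 the control rats at -0.30 to -0.18 lie lowest, the stressed rats lie higher and control replicate 2, at 0.22, lies highest, while the Cnr1 probe at 5343 is nearly level.

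Where a gene has more than 1 probe, the difference between its probes was followed in each rat, which removes whatever both probes share. For Faah, the signal at 1347 minus that at 3462 was -1.23, -0.54, -1.24 and -0.73 in control rats and -0.75, -0.25, -0.53 and -0.26 in stressed rats. The stressed rats were higher by 0.48, with overlap between the groups (exact permutation p = 0.114, 0.343 after adjustment over the 3 genes compared). For Cnr1, the probe at 1239 minus that at 5343 was -1.13 ± 0.18 (SD, n = 4) in control rats. In stressed rats it was -0.96 ± 0.19 (SD, n = 4), a difference of 0.17 (exact permutation p = 0.286, adjusted 0.429). The Napepld probes, which lie 10 bases apart, differed by -0.10 ± 0.06 (SD, n = 4) in control rats and by -0.12 ± 0.07 (SD, n = 4) after stress (exact permutation p = 0.771, adjusted 0.771). The spread of 0.06 to 0.07 between overlapping probes was thus smaller than that of 0.18 to 0.35 between probes more than 2000 bases apart. The probes of Faah and Cnr1 are among the 1885 transcripts from which the difference of the arrays was taken.

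**Figure D4:**
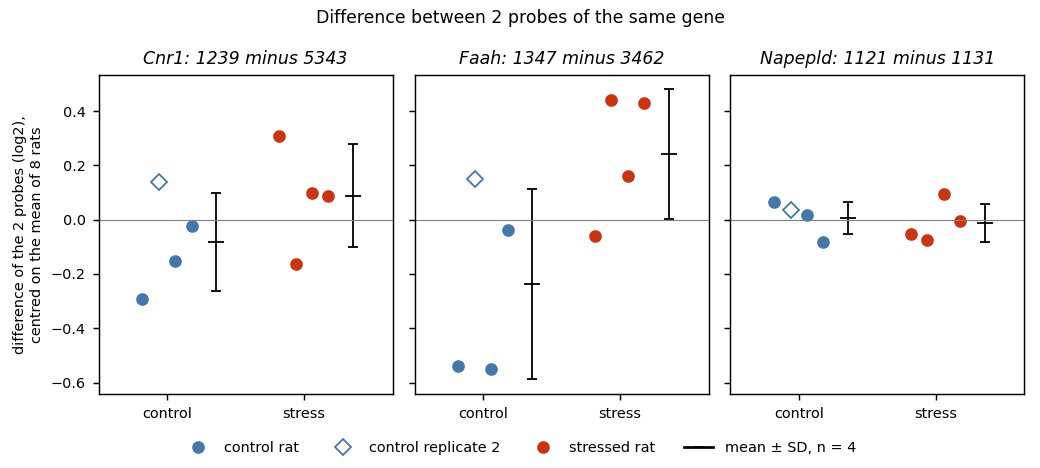
Log2 signal of the probe nearer the transcript start minus that of the other probe of the same gene (vertical axis, centred on the mean of the 8 rats) in each control and stressed rat, with bars for the mean ± SD of 4 rats. The Faah probes differed by 0.48 more in stressed rats with overlapping groups, and the overlapping Napepld probes stayed within 0.10 of their mean in every rat.

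Of 39 further genes of the pathway, all had a probe, 36 were tested, and 2 were called, both higher in stressed rats, which is 5.56% of them beside the 3.74% of all tested probes. The median change was 0.04, with 20 of the 36 above 0. Gnai1, an inhibitory G protein subunit through which CB1 can signal, read -3.40, -3.11, -3.0 and -2.92 in control rats and -2.53, -2.27, -2.24 and -2.61 in stressed rats. Its change was 0.70 (standard error 0.13, 95% interval 0.39 to 1.01, adjusted p = 0.0658 from limma), no rats of the groups overlapped, and control replicate 2 lay among the other control rats. Naaa, a lysosomal hydrolase of N-acylethanolamines, read -2.80, -2.85, -2.56 and -2.52 in control rats and -2.25, -2.16, -1.93 and -2.24 in stressed rats. The change was 0.54 (standard error 0.11, 95% interval 0.28 to 0.79, adjusted p = 0.0772), again with no overlap and with control replicate 2 the lowest control rat. Both genes are named because they were called with this rat among the controls. Its place there and the lack of overlap are therefore no separate evidence. With the array's 5′ minus 3′ difference in the fit, the changes were 0.65 (adjusted p = 0.0988) and 0.63 (adjusted p = 0.0653). Neither gene was called when any rat but control replicate 2 was left out, with the unscaled value table (adjusted p = 0.126 for Gnai1 and 0.23 for Naaa) or with replicate number as a block (0.207 for both). Few probes were called at all with those rats left out (0 to 72 of all tested probes) or with the block (0). Naaa was also not called with normexp background correction, quantile normalization or median scaling (adjusted p = 0.122, 0.147 and 0.144).

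By role, the called genes were 1 of 10 partners of CB1 and 1 of 6 tested genes of other breakdown routes. None was called among 5 tested lipid receptors, 5 phospholipase C genes that supply the precursor, 6 genes of other synthesis routes or 4 carriers, where limma gave an unadjusted p below 0.05 for 1, 1, 0 and 0 genes. Apart from the called genes, the largest estimates were those of the phospholipases Pla2g4e (0.98, adjusted p = 0.293) and Plcb3 (0.72, adjusted p = 0.181). Pla2g4e exceeded background in 2 control and 3 stressed rats, and its estimate with the covariate was -0.07. The lowest were those of Gpr18, a lipid receptor (-0.33, adjusted p = 0.513), and Alox12, a lipoxygenase (-0.31, adjusted p = 0.202), and both were near 0 with normexp background correction (0.00 and 0.01). The receptors Gpr55 and Gpr119 and the cyclooxygenase Ptgs2 were well above background on none of the 8 arrays. Without control replicate 2, 14 of the 36 genes (38.9%) were called, beside 42.4% of all tested probes, and these included Pla2g4e (1.45, adjusted p = 0.0102) and Plcb3 (0.96, adjusted p = 0.00446).

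The tissue carried the markers of spinal cord. Of 56 marker genes of 13 cell types, 51 were tested and 3 (5.88%) were called, beside 3.74% of all tested probes. They were the neuronal enolase Eno2 (-0.37, adjusted p = 0.0649), the myelin gene Mog (0.90, adjusted p = 0.0721) and the endothelial gene Pecam1 (0.40, adjusted p = 0.0927). The estimates of the other 4 tested neuronal markers were positive and not called, at 0.20 for Snap25, 0.32 for Syt1, 0.57 for Nefl and 0.14 for Tubb3. As the linear signal summed over a list, in units of the 75th percentile of the array, the 6 microglial markers gave 6.55 to 8.38 in control and 6.64 to 8.41 in stressed rats. Of the lymphocyte markers, Cd3e and Cd79b were well above background on no array, and the other 2 summed to 0.0264 to 0.0391 in control and 0.0219 to 0.0317 in stressed rats. The 6 astrocyte markers gave 51.2 to 61.5 in control and 56.9 to 75.4 in stressed rats, and the 5 neuronal markers 78.7 to 83.1 and 82 to 96.7. Most of the astrocyte sum was Aqp4, with 33.5 to 39.5 in control and 37.4 to 53.5 in stressed rats. The changes of the astrocyte markers differed in sign and were not called. They were 0.81 for Gfap, 0.42 for Slc1a2, 0.30 for Gja1, 0.26 for Aqp4, -0.08 for Aldh1l1 and -0.20 for Slc1a3. The 6 oligodendrocyte markers gave 227 to 334 in control and 248 to 342 in stressed rats, and the 5 endothelial markers 2.71 to 3.73 and 3.19 to 3.92. The 4 markers of inhibitory neurons gave 27.8 to 31.3 and 27.3 to 29.9, the 3 tested markers of motor neurons 1.59 to 1.98 and 1.39 to 2.25, and the 3 markers of ganglion sensory neurons 18.8 to 25.7 and 11.7 to 23. Nearly all of this last sum came from Calca and Prph. Scn10a gave only 0.00535 to 0.0152 over all rats and was well above background on 7 arrays. Fibroblast and meningeal markers gave 1.32 to 5.63 in control and 1.28 to 3.95 in stressed rats, and red blood cell markers 18.3 to 32.3 and 16.3 to 39.5. The markers of Schwann cells, which enclose the nerve roots, ran from 6.79 to 69.2 in control and from 6.59 to 20.8 in stressed rats. The ranges of the groups overlapped for 12 of the 13 lists, the exception being the single excitatory marker Slc17a6 (5.59 to 6.81 in control and 4.94 to 5.58 in stressed rats). Its change of -0.26 was not called (adjusted p = 0.174 from limma), and the groups did not overlap at 12.1% of all tested probes. The part of these markers in the values of the endocannabinoid genes was not tested.

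The gene symbols whose profile over the 8 rats was nearest to that of a member were found by the root mean square difference between profiles centred on their own mean, as a description of these arrays. Nearest to Mgll were Mgat3 and Vegfa, at 0.062 and 0.064 log2 units, against an SD of 0.57 for Mgll between rats. Ormdl2 and Arnt2 were nearest to Dagla at 0.015 and 0.016, and Scarb2 and Pigz were nearest to Napepld at 0.033 and 0.057. Sertad3 and Det1 were nearest to Abhd6 (0.065 and 0.071), Pcyt1a and Ltbp4 to Daglb (0.048 and 0.053), and Papola and Iws1 to the Faah probe at 3462 (0.057 and 0.058). Kcnk3 and Rpl10 were nearest to the Cnr1 probe at 5343 (0.026 and 0.032), and Zkscan5 and Mpg to Cnr2 (0.041 and 0.048).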

How the data were processed

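RNA of lumbar spinal cord from 4 stressed rats and 4 controls was hybridised to Agilent 1-colour rat arrays of design 028279, 1 array per rat. The intensity values the authors deposited were made with Agilent Feature Extraction 10.7.3.1, which subtracted the background and detrended each array. The deposited value table holds the same intensity, within 0.05 of it. No normalization between arrays was found. The authors' methods name dChip, and do not name its normalization or test. Flags and transcript positions (other columns, per the file headers) were used as deposited.

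Here outlier spots and the 4259 control spots were left out, the 75th percentile of each array was subtracted from its log2 signals, and replicate spots were averaged. Testing required a signal well above background (at least 0.5 of the spots) on 4 or more of the 8 arrays. Groups were compared by lmFit and eBayes of limma 3.58.1 (R 4.3.3, with files read by the data.table package, version 1.17.8), without covariate, after a test on simulated data. Where a gene had several probes, that of highest mean represents it. The named genes are the 8 members, each pathway gene called at an adjusted p below 0.1, the 2 highest and the 2 lowest pathway genes by fold change, and the 2 symbols nearest to each member. Members, lists, tests and alternatives were chosen with earlier results of these data known. Alternatives were normexp background correction (offset 50), quantile normalization, median scaling, the unscaled value table, filters, a robust variance trend, array weights, replicate number as a block, the 5′ minus 3′ covariate, 1 probe per symbol and leaving out each rat. No label says that the rats came from separate litters or batches. Of the 8 members, 7 matched RefSeq's gene list for GRCr8 by accession, and Faah did not. Exons and UTRs of rn4 were not analysed here. Arrays give no counts, and precision is limited by the number of arrays and by signal over background.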

Additional observations from a re-analysis of the deposited data

Results flagged for a closer look

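Among the 22 sets of 4 rats tested (11 probes in 2 groups), 1 held a rat far from the rest, where chance gives about 1 in 20, or 1.1 of 22. It was Dagla in the control rats, where the gap of control replicate 2 to the nearest control rat was 0.877 of their range (0.32 against -0.03, -0.04 and -0.08). No cause was tested.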

How the results depend on the processing

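The count of 0 called member probes held under every alternative except array weights (6) and leaving out control replicate 2 (0 to 6 over the rats left out). Of the 36 pathway genes, 2 were called, but 1 with normexp, quantile normalization or median scaling and 0 with the unscaled value table. Their count was 3 with the 5′ minus 3′ covariate, 18 with array weights and 0 to 14 with a rat left out, the 14 without control replicate 2. Over all probes the count of 885 became 215 with normexp, 1802 with the value table, 3010 with no filter, 2390 with the 5′ minus 3′ covariate, 11983 with array weights and 0 to 10038 with a rat left out. The 10038 came without control replicate 2, and with any other rat left out the count was at most 72.

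With replicate number as a block, limma called 0 pathway genes and 0 of all probes. Deviations of same-numbered rats correlated at 0.10, 0.12, -0.09 and 0.31 for replicates 1 to 4, so the numbers were not read as pairs, and no stressed rat correlated best with the control rat of its own number.

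The sign of small changes depended on the scaling. The Cnr1 probe at 1239 (0.07) gave -0.04 with quantile normalization, -0.05 with median scaling, -0.13 with the value table, -0.10 with the covariate and -0.03 to 0.14 with a rat left out. Cnr2 (0.00) gave -0.20, -0.11, -0.20 and -0.14 under the same settings, and -0.06 to 0.07 with a rat left out. Dagla (0.10) gave -0.02 with median scaling, -0.10 with the value table and -0.11 with the covariate. With the covariate Mgll gave -0.32 and the Faah probe at 1347 gave -0.18. The cause of these changes was not tested. The signs of the Cnr1 probe at 5343, Daglb, Napepld, Abhd6 and the Faah probe at 3462 held under all alternatives run.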
